A study of Mus musculus with 38 samples.

Results

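Cardiomyocytes and endothelial cells (ECs) of the uninjured mouse heart were compared in 8 of the 38 libraries of the series, 4 of Sham cardiomyocytes and 4 of Sham ECs, chosen by the cell type and treatment in their labels. The study asked how empagliflozin, given before an acute myocardial infarction (AMI), alters the transcriptome of cardiomyocytes, ECs and fibroblasts. Both groups came from adult male C57BL/6 mice that received the vehicle, 5% DMSO in saline, by mouth every day for 6 weeks and then had the chest opened without a coronary occlusion. Each library pooled 2 hearts. After collagenase digestion of the perfused heart, cardiomyocytes were the pellet of a slow spin and were not sorted, whereas ECs were sorted from the supernatant, after lysis of red cells, as CD45-/CD31+ cells. Cell population and isolation procedure therefore cannot be told apart in any comparison below, and Pecam1, which encodes CD31, was used to choose the ECs. By these steps a digested heart gave both a pellet and a supernatant, so libraries of both populations may share hearts. The labels do not tell which do. Sham fibroblasts, sorted from the same kind of supernatant as CD90+ cells (n = 4 libraries), are given where they help to read a value.

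The cardiomyocyte contracts by sliding thin filaments of actin, tropomyosin and troponin along thick filaments of myosin, under the control of calcium released from the sarcoplasmic reticulum. It covers its energy need almost wholly by mitochondrial oxidation of fatty acids, lactate, glucose and ketone bodies. The EC lines the vessel, seals it with junctions built around VE-cadherin, carries lipids and solutes across to the muscle and answers to vascular endothelial growth factors (VEGFs), many of which the muscle itself makes.

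Counts per library ranged from 2895549 to 4509290 in cardiomyocytes and from 1352522 to 2060844 in ECs. The populations differed in composition, first in the share of the 13 mitochondrially encoded mRNAs (symbols that start with mt-). They held 56.1, 62.1, 55.8 and 50.6% of all counts in the 4 cardiomyocyte libraries and 6.87, 7.67, 7.64 and 5.16% in the 4 EC libraries, a mean of 56.2% ± 4.71 against 6.84% ± 1.18 (SD, n = 4 each, exact permutation test, two-sided p = 0.029, the smallest p that 4 against 4 libraries allow). The groups did not overlap, and the Sham fibroblasts, at 7.65% ± 3.56, were near the ECs. The counts of nuclear genes, from 1280260 to 1902787 per library, were similar in size. Within them, 296 ± 35.2 genes held 50% of the nuclear counts in cardiomyocytes and 735 ± 39.1 did so in ECs, again without overlap (exact permutation test, p = 0.029). The 10 most abundant nuclear genes took 16.4% ± 1.51 and 5.22% ± 0.301 of the nuclear counts, respectively. When each library was thinned in expectation to 1280260 nuclear counts, 13286 ± 102 genes were detected in cardiomyocytes and 13557 ± 314 in ECs, groups that overlapped (exact permutation test, p = 0.14). Counted as genes with 5 or more expected counts, the groups separated, at 10111 ± 46.6 and 10562 ± 83.7 (exact permutation test, p = 0.029). So the cardiomyocyte library was concentrated on fewer genes, and a difference in genes detected at any level was not resolved at this depth.

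**Figure D1:**
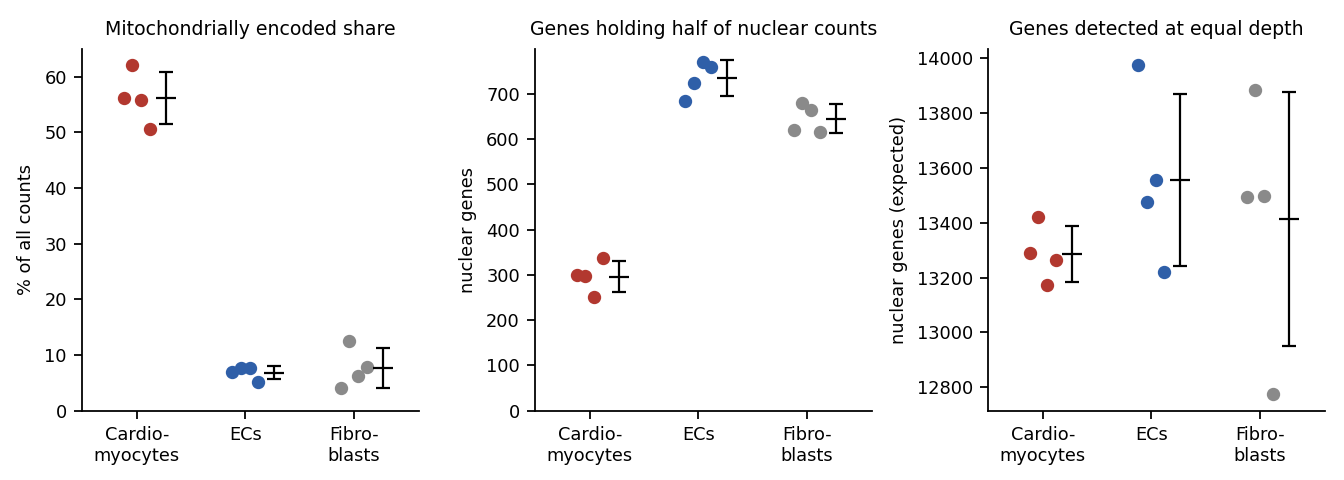
Composition of the 12 Sham libraries. Points are libraries, and bars are the mean and SD of 4 libraries. Left, percent of all counts on mitochondrially encoded genes; middle, number of nuclear genes that hold 50% of nuclear counts; right, nuclear genes detected at 1280260 counts, on an axis that does not start at 0. The cardiomyocytes stand at 50.6% to 62.1% in the left panel, above every EC and fibroblast library.

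Because over 50% of each cardiomyocyte library lay on mt- genes, the scale of a level matters. In what follows, CPM are counts per 1000000 after trimmed mean of M-values (TMM) scaling of the 8 libraries together, and a log2 difference is cardiomyocytes minus ECs. The FDR comes from edgeR's quasi-likelihood test with Benjamini-Hochberg adjustment across the 10103 genes left by the filter on low counts. Nuclear CPM are counts per 1000000 nuclear counts without further scaling. The libraries count 3′ ends, 1 read per transcript, so gene length does not enter a level. Levels in a bulk library do not tell fewer cells of a type from less RNA per cell.

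The marker genes matched the labels in every library, but the traces of the other population were unequal. Of the 11 cardiomyocyte markers, all 11 were higher in cardiomyocytes, and their summed level was 91567 to 100956 nuclear CPM in cardiomyocytes against 541 to 2150 in ECs. Myh6, the alpha myosin heavy chain of the adult mouse ventricle (chr14:55179367-55205887 on GRCm39), stood at 11884, 10831, 10834 and 10869.5 CPM in cardiomyocytes and at 95.9, 55.9, 198 and 59.4 CPM in ECs. The third EC library had the highest level of all 10 cardiomyocyte markers that were counted in any EC library. In the EC libraries these markers had a median of 0.581% of their cardiomyocyte level (range over markers 0 to 2.32%), with 1.15% in the third library against 0.273 to 0.423% in the other 3. Of the 12 endothelial markers, all 12 were higher in ECs, but they were far from absent in the unsorted cardiomyocyte pellet, where they had a median of 17.9% of their EC level (range 11.3 to 26.98%) on the CPM scale and 10.7% (6.77 to 16.3%) on the nuclear CPM scale. Kdr, the main VEGF receptor (chr5:76093487-76139884), stood at 370.2, 423, 294 and 371 CPM in cardiomyocytes and at 2016, 1977, 2529 and 2232 CPM in ECs. The second cardiomyocyte library had the highest level of all 12 markers, with a median of 24.1% of the EC level against 15.1 to 17.1% in the other 3 libraries. RNA of ECs in the pellet and expression of these genes by cardiomyocytes cannot be told apart from these counts.

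Other cell types were also unevenly present. Of the 9 fibroblast markers tested, 8 were higher in cardiomyocytes and none was higher in ECs, with a summed level of 2624 to 3940 nuclear CPM on the cardiomyocyte side and 757 to 1909 on the EC side. Sham fibroblasts had 23136 to 30850. Col1a1, the alpha 1 chain of type I collagen, had 192 ± 26.3 CPM (SD, n = 4) in cardiomyocytes and 20.6 ± 9.97 CPM in ECs (log2 difference 3.21, SE 0.27, FDR: 1.2e-07). Of the 8 mural cell markers tested, 4 (50%) were higher in cardiomyocytes and 0 in ECs (median log2 difference 1.11), against 32.1% and 32.5% of all genes tested. With library size as the only scale, 0 and 3 of these markers were. Their sums overlapped, at 717 to 1002 nuclear CPM in cardiomyocytes and 689 to 1040 in ECs. Of the 4 leukocyte markers that were tested, all 4 were higher in cardiomyocytes, although the sums were small (63.3 to 166 against 11.6 to 47.3 nuclear CPM), 4 of the 11 listed had at most 3 counts in every library of each population, and Ptprc, which encodes CD45, was under the filter with 3.02 ± 1.89 and 0.631 ± 0.428 CPM. The ECs were sorted as CD45- cells and the pellet was not sorted. The isolation thus favoured this direction in advance, and the count is not an independent result. None of the 4 haemoglobin genes tested passed the test, and their level ranged widely. Hba-a2, the alpha globin, stood at 295, 45.9, 136 and 61.96 CPM in cardiomyocytes and at 5.70, 16.3, 60.6 and 27.2 CPM in ECs (log2 difference 2.27, FDR: 0.06). It passed without the second cardiomyocyte library (FDR: 0.047) or the third EC library (FDR: 0.037), with DESeq2, with no robust estimation and with all 38 libraries, and Hba-a1 passed with no robust estimation. The near-identical Hba-a1 makes the split of reads between these genes uncertain. Of the platelet, Schwann cell and mesothelial lists, with 5, 4 and 4 genes, 1, 1 and 2 genes were tested. Of the platelet genes Gp1bb was higher in cardiomyocytes, and of the mesothelial genes Upk3b was higher in cardiomyocytes (log2 difference 1.90, FDR: 7.3e-05) and Wt1 was higher in ECs (log2 difference −2.08, FDR: 1.1e-06). The part of these other cells in the differences below was not tested.

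**Figure D2:**
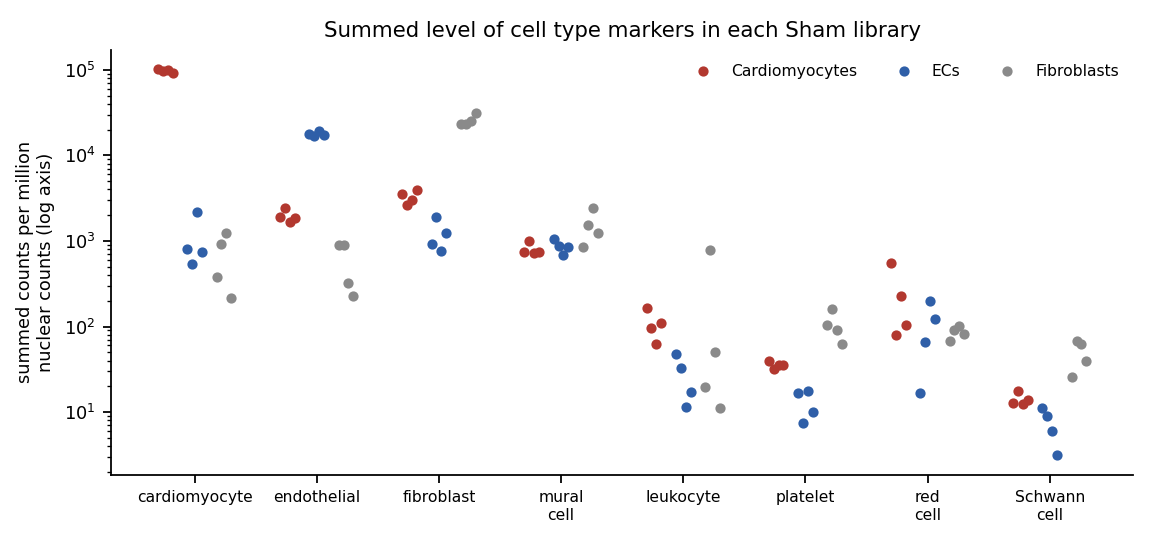
Summed level of 8 lists of cell type markers in each of the 12 Sham libraries, in nuclear CPM on a log axis. Each point is a library. Endothelial markers in the cardiomyocyte libraries lie between 1650 and 2458, against 16830 to 19005 in the EC libraries, while cardiomyocyte markers in the EC libraries lie between 541 and 2150, of 91567 or more in cardiomyocytes.

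On the TMM scale, the calls divided almost evenly by direction. Of the 10103 genes tested, 6531 passed FDR <0.05 (64.6%), 3246 (32.1%) with the higher level in cardiomyocytes and 3285 (32.5%) with the higher level in ECs, and 5917 (58.6%) had groups that did not overlap. Against a 2-fold difference, tested with edgeR's glmTreat, 1826 genes (18.1%) were higher in cardiomyocytes and 1169 (11.6%) were higher in ECs. The sizes were uneven on this scale. Among the genes past 2-fold, the median log2 difference was 2.68 on the cardiomyocyte side and −2.01 on the EC side, and 441 genes were more than 16-fold higher in cardiomyocytes against 13 in ECs. With genes of no more than 3 counts in every library of the other population held at that floor, these numbers were 409 and 2, and the medians were 2.68 and −1.92. Of the 1169 genes past 2-fold in ECs, 643 had a cardiomyocyte level within the range of the 12 endothelial markers, 11.3 to 26.98% of their EC level, 464 lay above that range and 62 below it. Of the 1813 nuclear genes past 2-fold in cardiomyocytes, 241 (13.3%) had a higher nuclear CPM in all 4 Sham fibroblast libraries than in any cardiomyocyte library. The median log2 difference over all genes tested was −0.06, the value against which the medians of gene lists are to be read. Counts of list members are likewise to be read against the 32.1% and 32.5% of all genes. Without the second cardiomyocyte library 3197 genes were higher in cardiomyocytes and 2943 in ECs, and without the third EC library 3279 and 3213. With the mt- genes removed before scaling, 3323 genes were higher in cardiomyocytes and 3125 in ECs of 9927 tested. With library size as the only scale, the same data gave 1018 and 8022, and the median of all genes moved to −1.89, so directions within about 2 log2 units of 0 rest on the scaling. Upper quartile factors gave 2736 and 4233 (39.3% of the calls higher in cardiomyocytes, against 49.7% with TMM) at a median of −0.33. Past 2-fold, upper quartile factors gave 1528 in cardiomyocytes and 1689 in ECs, and library size only gave 679 and 6658. The near-even split of the calls and the excess past 2-fold on the cardiomyocyte side thus both rest on the scaling.

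**Figure D3:**
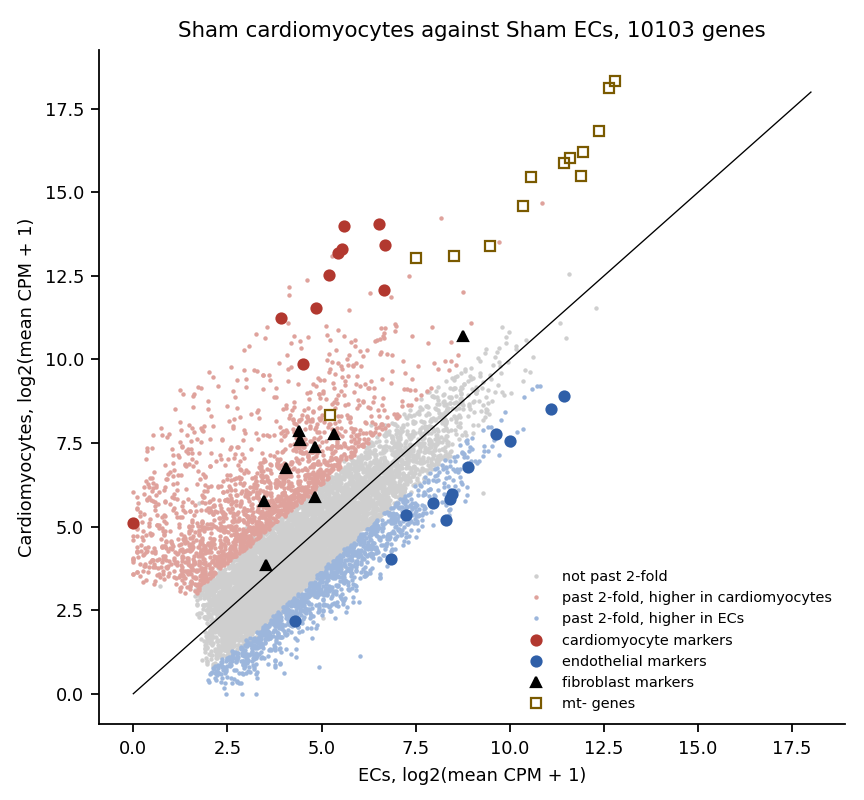
Mean level of the 10103 genes tested in Sham ECs (horizontal) and Sham cardiomyocytes (vertical), each as log2(CPM + 1) over 4 libraries. Pale red and pale blue points are past a 2-fold difference, and marker lists and mt- genes have their own symbols. The endothelial markers run parallel to the diagonal, with fitted log2 differences of −3.13 to −1.89, while those of the cardiomyocyte markers are 5.42 and more.

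The genes of the contractile apparatus were widely separated. All 9 thick filament genes, all 8 thin filament genes and all 13 Z-disc and costamere genes tested were higher in cardiomyocytes, with median log2 differences of 6.82, 7.30 and 6.59. Myl3, the ventricular essential light chain, reached 16448 ± 1758 CPM against 47.2 ± 32.5 CPM in ECs (log2 difference 8.44, SE 0.54, FDR: 4e-07). Tpm1, the alpha tropomyosin, was the most abundant nuclear transcript of the cardiomyocytes at 19262 ± 2224 CPM, and its EC level of 286 ± 77.8 CPM left a smaller difference (6.08). This gene also makes non-muscle forms. Tnnt2, cardiac troponin T, stood at 18935, 16498, 18318 and 14866 CPM in cardiomyocytes and at 72.5, 46.9, 187 and 55.2 CPM in ECs. Myh7, the slow beta myosin heavy chain, was counted at 284 ± 20.1 CPM in cardiomyocytes beside 11105 CPM of the alpha chain, although the similar sequences of these neighbouring genes leave the assignment of a few reads uncertain. Actn2, the alpha-actinin of the Z-disc, had 504 ± 26.8 and 2.08 ± 1.20 CPM (log2 difference 7.87, FDR: 1.3e-17), and Tcap, the titin cap, 2025 ± 597 and 10.6 ± 4.13 CPM. The smallest differences in this group were those of Pdlim5 (2.93) and Flnc, muscle filamin (3.46), both also past the test. Acta1, the skeletal actin, was at 214 ± 38.8 CPM in cardiomyocytes and had at most 4 counts in any EC library.

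The windows around the start sites of 2 of these genes and of 2 endothelial marker genes are shown as examples. They do not stand for the other markers of either population. They run from 250 bases before to 50 bases after the transcription start, 5′ to 3′ on the gene's strand, as RefSeq gives them for GRCm38.p6, a build older than that of the counts: Myl3 at chr9:110763428-110763727 (plus strand), Actc1, cardiac actin, at chr2:114052826-114053125 (minus), Tie1, an angiopoietin co-receptor, at chr4:118489800-118490099 (minus) and Emcn, endomucin, at chr3:137340828-137341127 (plus). Capitals mark matches on either strand to 5 motifs. The first was the TATA box TATAAA. The next were the CArG box, bound by serum response factor, and the MEF2 box. Then came AGATAA, a site of GATA factors. The last was AGGAAG, a site of ETS factors.
Myl3: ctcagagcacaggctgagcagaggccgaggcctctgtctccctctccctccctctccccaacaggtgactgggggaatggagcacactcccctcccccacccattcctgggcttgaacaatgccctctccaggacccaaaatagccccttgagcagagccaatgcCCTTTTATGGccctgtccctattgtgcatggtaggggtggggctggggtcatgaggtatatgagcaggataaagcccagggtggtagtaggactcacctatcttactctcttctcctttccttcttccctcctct
Actc1: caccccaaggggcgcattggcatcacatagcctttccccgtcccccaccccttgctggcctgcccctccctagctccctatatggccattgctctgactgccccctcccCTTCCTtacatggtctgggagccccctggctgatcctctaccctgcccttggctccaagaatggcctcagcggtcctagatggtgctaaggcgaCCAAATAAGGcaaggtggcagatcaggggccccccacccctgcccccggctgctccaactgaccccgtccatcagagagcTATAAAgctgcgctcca
Tie1: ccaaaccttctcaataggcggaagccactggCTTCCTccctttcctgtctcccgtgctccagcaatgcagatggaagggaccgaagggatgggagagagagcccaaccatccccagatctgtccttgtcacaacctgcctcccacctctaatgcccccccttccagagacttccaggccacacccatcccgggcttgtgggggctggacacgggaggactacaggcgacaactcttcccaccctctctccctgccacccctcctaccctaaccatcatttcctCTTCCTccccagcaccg
Emcn: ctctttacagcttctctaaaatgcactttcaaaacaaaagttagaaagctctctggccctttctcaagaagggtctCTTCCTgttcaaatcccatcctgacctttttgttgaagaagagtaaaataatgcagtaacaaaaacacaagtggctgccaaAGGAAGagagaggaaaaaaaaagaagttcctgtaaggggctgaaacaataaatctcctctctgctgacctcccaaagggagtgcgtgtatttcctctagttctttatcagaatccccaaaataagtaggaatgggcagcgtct
The Myl3 window held a CArG box 85 bases before the start, and the Actc1 window held one 47 bases before it, besides 1 ETS site and, after the annotated start, 1 TATA box. The Tie1 and Emcn windows each held 2 ETS sites and none of the other motifs. Over all 32851 windows in the table, 1.63% held a CArG box, 3.19% a MEF2 box, 11.2% the GATA site, 13.6% the TATA box and 35.4% the ETS site. Windows were found for all 11 cardiomyocyte markers. Of these, only the 2 shown, Myl3 and Actc1, held a CArG box. Among the 11, 1 held a MEF2 box, 3 the GATA site, 4 the TATA box and 3 the ETS site. Only 6 of the 12 endothelial markers and 78.4% of the genes tested had a window, so shares over those sets are void and are not given. A match describes letters in a window and says nothing of binding.

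Genes of excitation and calcium cycling followed the same direction. All 14 calcium handling genes (median 5.57) and all 8 membrane excitability genes tested (median 6.51, or 5.90 with genes near 0 in ECs held at the floor) were higher in cardiomyocytes. Ryr2, the calcium release channel, had 936 ± 59.1 CPM against 21.6 ± 6.16 CPM (log2 difference 5.43, SE 0.19, FDR: 1.3e-16), and Atp2a2, the calcium pump SERCA2, 4027 ± 204 against 76.7 ± 25.6 CPM (5.71). Camk2d, a calcium-dependent kinase, was the one close to parity, with 78.8 ± 4.40 and 55.2 ± 8.25 CPM (log2 difference 0.51, SE 0.15, FDR: 0.0054). Kcnip2, a subunit of the transient outward potassium channel, varied little between cardiomyocyte libraries, at 247, 260.0, 247 and 239 CPM. Of the intercalated disc genes, 8 of 9 tested were higher in cardiomyocytes and 1 was higher in ECs (median 5.01, or 4.003 at the floor). Cdh2, N-cadherin, was at 258 ± 20.3 and 2.67 ± 1.01 CPM, and Dsp, desmoplakin, at 688 ± 48.4 and 6.94 ± 2.16 CPM. Jup, plakoglobin, which is also part of endothelial junctions, was the exception (59.97 ± 14.7 and 149 ± 4.12 CPM, log2 difference −1.31, FDR: 2.6e-07). Gja1, connexin 43, differed little and overlapped between the groups (75.2, 83.1, 95.4 and 63.98 against 31.97, 58.5, 66.4 and 49.6 CPM, log2 difference 0.61, FDR: 0.0084), and its direction, like that of Camk2d, turned with library size as the only scale.

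The 4 genes listed as atrial were all higher in cardiomyocytes, and all 4 were highest in the fourth cardiomyocyte library. Nppa, atrial natriuretic peptide, stood at 318, 299, 382 and 892 CPM in cardiomyocytes, with the fourth library far above the others, and at 2.53, 2.37, 7.92 and 9.08 CPM in ECs. The log2 difference was 6.46 with the fourth library and 6.02 without it. Myl7, the atrial light chain, stood at 62.8, 44.95, 54.5 and 196 CPM in cardiomyocytes and at 0, 2.11, 2.19 and 6.81 CPM in ECs (log2 difference 5.09, FDR: 0.002), and its log2 difference was 4.41 without the fourth library.

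Genes of fuel use were also on the cardiomyocyte side. All 25 genes of the citrate cycle and pyruvate oxidation (median log2 difference 3.89), all 4 of ketone body use (5.26) and 20 of 22 of fatty acid uptake and oxidation (4.05) were higher in cardiomyocytes. Acadm, the medium-chain acyl-CoA dehydrogenase, had 1134 ± 186 CPM against 35.5 ± 4.49 CPM (log2 difference 4.99, SE 0.17, FDR: 1.1e-16). Cpt1b, the muscle form of the enzyme that admits long-chain fatty acids to the mitochondrion, had 159 ± 17.8 against 1.75 ± 1.33 CPM. Oxct1, which activates ketone bodies for oxidation, had 1528 ± 166 against 36.7 ± 11.2 CPM (5.38). Bdh1, beta-hydroxybutyrate dehydrogenase, was counted in every cardiomyocyte library at 66.2, 44.95, 91.3 and 58.4 CPM and in none of the EC libraries, at least 57.5-fold higher against the floor of 3 counts in the smallest EC library. The exceptions within lipid handling were the surface proteins of the capillary. Cd36, a fatty acid translocase, had 566, 609.9, 462 and 409 CPM in cardiomyocytes and 1010.3, 1104, 1145 and 924 CPM in ECs (log2 difference −1.03, SE 0.15, FDR: 2.1e-06), and Gpihbp1, which anchors lipoprotein lipase to the capillary wall, had 137 ± 37.4 and 388 ± 46.6 CPM (log2 difference −1.49, FDR: 4.5e-08). Neither passed when the filter, the scaling and the spread were all taken from the 38 libraries together. Lpl itself, the lipase, was on the other side with 4149 ± 223 CPM in cardiomyocytes and 435 ± 112 CPM in ECs (log2 difference 3.25, FDR: 4.6e-13).

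Glycolysis was higher in cardiomyocytes in 17 of 19 genes (median 3.21), with Aldoa, aldolase A, at 1764 ± 223 against 100.5 ± 15.02 CPM. With library size only, 11 of these genes were higher in cardiomyocytes and 4 in ECs. The genes that did not pass with TMM were Slc2a1 and Eno1. Slc2a1, the glucose carrier GLUT1, had 5.38 ± 1.58 and 6.41 ± 2.06 CPM (log2 difference −0.29, 95% confidence interval −1.07 to 0.49). Eno1 had 6.12 ± 2.35 and 9.55 ± 1.38 CPM, and its count is uncertain because the annotation holds a near-identical copy. The nuclear-encoded subunits of the respiratory chain were higher in cardiomyocytes without exception among those tested, namely 37 of complex I, 4 of complex II, 9 of complex III, 15 of complex IV and 19 of ATP synthase, with medians from 3.04 to 4.05. With library size only, 12 of complex IV were higher in cardiomyocytes and 2 in ECs. The 13 mitochondrially encoded genes were all higher in cardiomyocytes on both scales (median 4.44 with TMM). The phosphagen and oxygen stores were further apart (9 of 9, median 7.36). Mb, myoglobin, stood at 8830.4 ± 523 CPM against 37.9 ± 28.6 CPM, and Ckm, muscle creatine kinase, at 873 ± 150.3 against 5.03 ± 4.96 CPM. The mitochondrial messages also differed in proportion. Of the counts on all 13, mt-Nd4 took 30.5% ± 1.85 in cardiomyocytes and 19.7% ± 3.65 in ECs, and mt-Nd2 took 26.6% ± 1.46 and 17.6% ± 1.99, while mt-Co2 took 4.28% ± 0.171 and 10.3% ± 2.36. Each of these 3 had groups that did not overlap (exact permutation test, p = 0.029, adjusted p = 0.034 over the 13 genes), which was true of 11 of the 13. The shares are parts of the same total, so a higher share of some genes lowers that of others. The 11 are therefore not independent differences.

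Protein synthesis split by compartment. Of the 78 mitochondrial ribosome genes tested, 74 were higher in cardiomyocytes and none was higher in ECs, with a median of 2.05. With library size only, 25 were higher in cardiomyocytes and 17 in ECs at a median of 0.21. The list still lay 2.1 above the median of all genes there. The cytosolic ribosome was near parity, where 40 of 81 genes were higher in cardiomyocytes and 4 in ECs at a median of 0.34, or 0.40 above the median of all genes. With library size only, 1 was higher in cardiomyocytes and 80 in ECs, although the list still lay 0.39 above the median of all genes, and the summed nuclear CPM of these genes was lower in cardiomyocytes (44794 to 46761) than in ECs (53000 to 63565). A direction for the cytosolic ribosome therefore depends on the scale. Within it, Rpl3l, a muscle form of ribosomal protein L3, was the far exception, at 249 ± 22.9 CPM in cardiomyocytes and 1.97 ± 2.88 CPM in ECs (6.86).

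Transcription factors separated the populations too. Of the 16 cardiomyocyte factors tested, 13 were higher in cardiomyocytes (median 3.46, or 3.28 at the floor) and 1 was higher in ECs. With library size only, 9 were higher in cardiomyocytes and 4 in ECs. Nkx2-5, the cardiac homeobox factor (chr17:27057638-27063983), was at 29.7, 29.5, 44.97 and 30.2 CPM in cardiomyocytes and had no count in any EC library, at least 29.6-fold higher. Ppargc1a, the coactivator of mitochondrial biogenesis, had 111 ± 8.14 and 1.63 ± 0.301 CPM (log2 difference 6.02, SE 0.22, FDR: 2.2e-16), and Perm1, a muscle regulator of the same programme, 262, 250.3, 279 and 266 CPM in cardiomyocytes and 2.22, 1.32, 3.55 and 0 CPM in ECs. Other factors often named for the heart were shared. Gata6 had 42.9 ± 9.55 and 39.9 ± 13.4 CPM (95% confidence interval −0.39 to 0.58), Mef2d had 56.8 ± 7.15 and 57.8 ± 10.8 CPM (95% confidence interval −0.38 to 0.31), and Mef2a was higher in ECs (132 ± 8.38 and 225 ± 29.6 CPM, log2 difference −0.77, FDR: 4.1e-05). All 19 endothelial factors tested were higher in ECs (median −2.29). Klf2, the flow-responsive Krüppel-like factor, stood at 145, 141, 123 and 151 CPM in cardiomyocytes and at 566, 975, 814 and 1028 CPM in ECs. Fli1, an ETS factor, had 35.5 ± 6.82 and 204 ± 35.2 CPM (log2 difference −2.51, SE 0.17, FDR: 1.3e-11). Sox17, a factor of arterial endothelium, was lower still in the cardiomyocyte pellet, at 5.02 ± 1.12 CPM or 10.1% of its EC level of 49.7 ± 15.2 CPM, below the 11.3% of the lowest endothelial marker.

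The vessel wall genes of ECs had smaller differences than those of the sarcomere, and each was also counted in the cardiomyocyte pellet. All 12 endothelial junction genes tested were higher in ECs (median −1.87). Cdh5, VE-cadherin, had 61.1, 74.4, 58.6 and 54.4 CPM in cardiomyocytes and 328, 319, 419 and 352 CPM in ECs (log2 difference −2.51, SE 0.15, FDR: 1.3e-12). All 8 capillary genes were higher in ECs (median −2.23), as were 5 of 6 arterial genes (−2.26), 4 of 5 venous genes (−1.73) and 3 of 3 endocardial genes (−2.45). Aqp1, the water channel of capillaries, reached 1536 ± 431 CPM in ECs and Plvap, the diaphragm protein of fenestrated and venous endothelium, 63.6 ± 24.9 CPM. Of 5 lymphatic genes, Lyve1, Flt4 and Mmrn1 were higher in ECs while Prox1 and Pdpn were higher in cardiomyocytes, the former at 97.5 ± 10.04 and 45.1 ± 10.4 CPM (log2 difference 1.11, FDR: 5.5e-06), although both turned direction with library size as the only scale. Vwf, von Willebrand factor, varied widely between the EC libraries, at 177, 497, 206 and 384 CPM. The clotting list was mixed. Of its 9 genes tested, 5 (55.6%) were higher in ECs and 2 (22.2%) in cardiomyocytes, against 32.5% and 32.1% of all genes tested. Thbd, thrombomodulin, had 39.6 ± 3.68 and 203 ± 75.8 CPM. Tfpi, an inhibitor of the tissue factor pathway, was higher in cardiomyocytes on this scale (43.7 ± 0.971 and 25.6 ± 4.84 CPM, log2 difference 0.77, FDR: 0.00084) but lower with library size only.

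Antigen presentation by MHC class I was higher in ECs for all 10 genes (median −2.04), with H2-K1 at 113 ± 3.01 and 440.5 ± 76.9 CPM (log2 difference −1.96, SE 0.15, FDR: 5.5e-11), although reads of related class I genes may be split between them. Of the Notch genes tested, 8 of 10 were higher in ECs. Dll4, the arterial Notch ligand, had 3.83 ± 0.962 CPM in cardiomyocytes, 9.52% of its EC level of 40.2 ± 7.21 CPM. Of the 13 basement membrane genes, 7 (53.85%) were higher in ECs and 5 (38.46%) in cardiomyocytes, against 32.5% and 32.1% of all genes tested. Past 2-fold were 2 on each side. With library size only, 11 were higher in ECs and 1 in cardiomyocytes. Col4a1 and Hspg2, the type IV collagen chain and perlecan, were higher in ECs (−1.09 and −1.89), whereas Lama2, the laminin chain of muscle, was higher in cardiomyocytes (3.13) and highest of all in Sham fibroblasts, at 525 nuclear CPM. Caveolar genes divided by form. Cav1 was at 53.6 ± 6.59 and 449 ± 134 CPM (log2 difference −3.06, FDR: 4.4e-10), and the muscle caveolin Cav3 at 66.3 ± 8.95 and 0.418 ± 0.494 CPM, at least 58.4-fold higher.

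**Figure D4:**
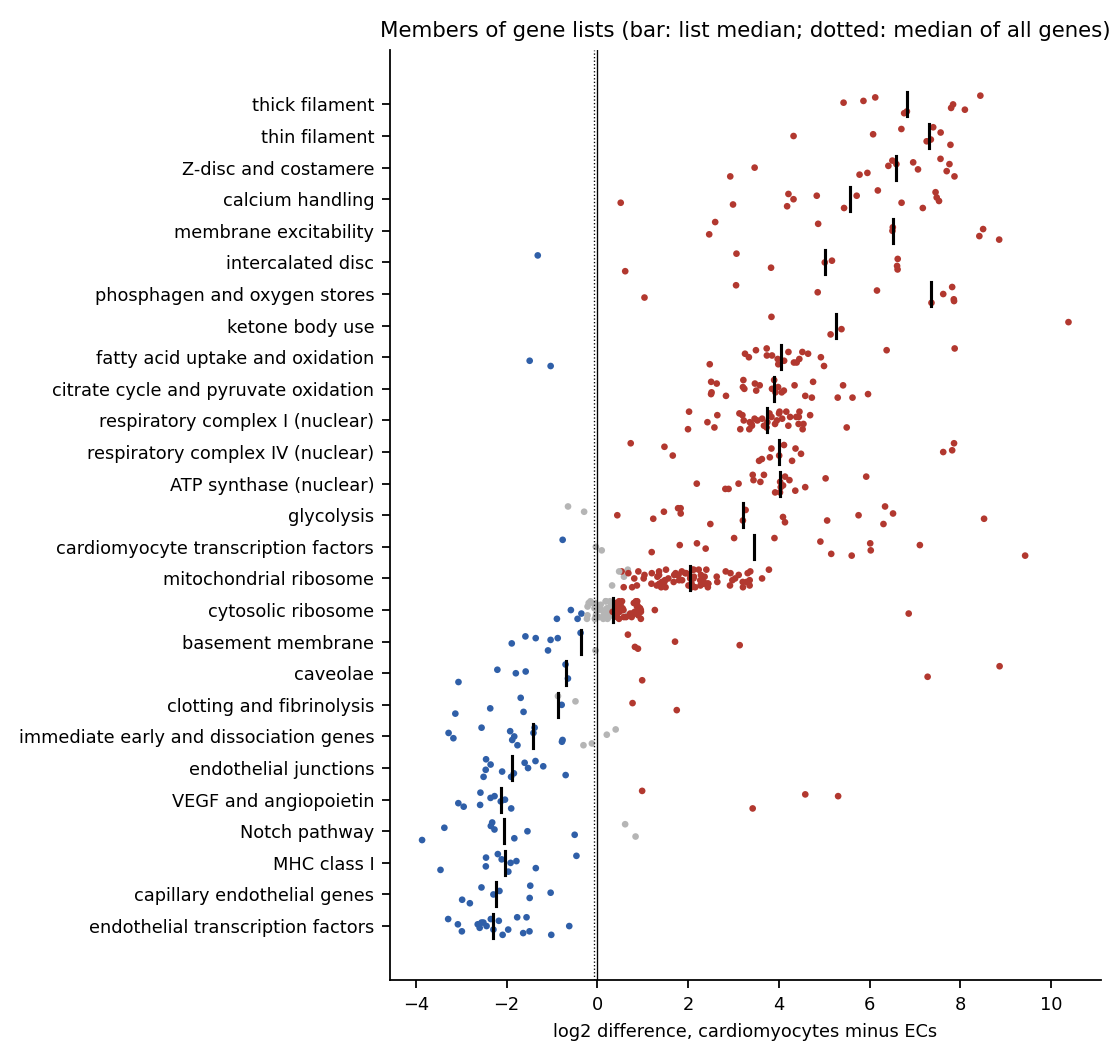
Log2 difference (cardiomyocytes minus ECs, TMM scale) of every tested member of 27 gene lists. Red points passed FDR <0.05 with the higher level in cardiomyocytes, blue points with the higher level in ECs, and grey points did not pass. Short bars are list medians. Sarcomere and phosphagen lists centre near 7, oxidative lists near 4, the cytosolic ribosome at 0.34 and the endothelial lists near −2.

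Ligands and receptors were often divided between the populations. Of the 13 VEGF and angiopoietin genes, 9 were higher in ECs and 4 in cardiomyocytes. The ligand Vegfb stood at 349, 365, 362 and 297 CPM in cardiomyocytes and at 5.70, 8.17, 9.29 and 11.7 CPM in ECs (log2 difference 5.30, SE 0.19, FDR: 1.4e-16). Vegfa, the main angiogenic ligand, stood at 259, 233, 241 and 240.3 CPM and at 31.6, 20.02, 18.9 and 20.4 CPM (log2 difference 3.42, SE 0.17, FDR: 3.5e-14). Angpt1, the agonist of the receptor Tek, was likewise higher in cardiomyocytes (65.9 ± 12.8 and 2.68 ± 1.99 CPM), and Pgf, placental growth factor, differed less (0.99) and turned direction with library size only. On the EC side were the receptors Kdr, Flt1 (227 ± 63.7 and 1162 ± 166 CPM, log2 difference −2.35, FDR: 1.3e-10), Flt4, Nrp1, Nrp2, Tek and Tie1, together with the ligands Vegfc and Angpt2 (3.70 ± 0.63 and 16.3 ± 7.29 CPM). In the wider list of 28 paracrine genes tested, 17 (60.7%) were higher in ECs and 5 (17.9%) in cardiomyocytes, against 32.5% and 32.1% of all genes tested. Nrg1, neuregulin, was higher in ECs, with 13.9 ± 5.46 CPM there and at most 3 counts in any cardiomyocyte library. Its receptor genes Erbb3 and Erbb4 were under the filter, at 2.92 ± 1.05 and 1.47 ± 0.671 CPM in cardiomyocytes and at 0 counts in all 4 EC libraries, which allows up to 3 counts in each. Edn1, endothelin 1, was higher in ECs (17.4 ± 1.23 and 44.3 ± 17.7 CPM) and its receptor Ednra in cardiomyocytes (10.3 ± 2.47 and 2.10 ± 0.811 CPM, log2 difference 2.29, FDR: 2.7e-05). Nos3, the endothelial nitric oxide synthase, had 15.3 ± 2.57 and 113 ± 17.8 CPM, while Gucy1a1 (95% confidence interval −0.59 to 0.20) and Gucy1b1 (95% confidence interval −0.18 to 0.69), subunits of the cyclase that nitric oxide activates, did not pass the test. Fgf1 was higher in cardiomyocytes (5.08), and Pdgfb and Cxcl12 were higher in ECs (−2.31 and −2.11).

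Ratios of related genes within a library need no scaling between libraries. For 37 pairs, a gene listed for the cardiomyocyte side, often but not always a muscle or heart form, was set over its relative. The log2 of the ratio of counts, 0.5 added to each, was compared by the exact permutation test over 4 against 4 libraries, two-sided. In 34 pairs the ratio was higher in all cardiomyocyte libraries than in any EC library (exact permutation test, p = 0.029, adjusted p = 0.031 over the 37 pairs), in 3 pairs the groups overlapped, and none went the other way. The pairs were listed for such a contrast, so their direction is not independent evidence. In 25 pairs the more abundant gene changed, being the first gene in every cardiomyocyte library and its relative in every EC library.

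The widest gap was that of the fatty acid binding proteins. Fabp3, the heart form, had 4031, 4043, 3927 and 3655 CPM in cardiomyocytes and 13.3, 3.95, 37.4 and 11.3 CPM in ECs. Fabp4 had 455, 599.8, 486 and 388 CPM in cardiomyocytes and 2748, 2614, 3228 and 2554 CPM in ECs. The log2 ratio of Fabp3 to Fabp4 was 3.04 ± 0.209 in cardiomyocytes and −7.80 ± 1.19 in ECs (SD, n = 4 each), so that Fabp3 made up 89.1% and 0.555% of the pair. Of the cytochrome oxidase subunits, the muscle form made up 96.9% of the Cox6a2 and Cox6a1 pair in cardiomyocytes and 18.1% in ECs, 60.2% and 8.35% of Cox7a1 with Cox7a2, and 68.6% and 2.70% of Cox8b with Cox8a. In glycolysis, Pgam2 was 79.9% of the phosphoglycerate mutase pair in cardiomyocytes and 2.66% in ECs, and Ldhb, the lactate-using subunit, was 73.6% and 14.2% of the lactate dehydrogenase pair. Among glucose carriers, the insulin-responsive Slc2a4 was 96.5% of its pair with Slc2a1 in cardiomyocytes and 21.3% in ECs, where the EC value rests on as few as 16 counts.

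Translation showed the same pattern, as Eef1a2 was 55.3% of the elongation factor 1 alpha pair in cardiomyocytes and 0.328% in ECs, and Rpl3l exceeded Rpl3 in every cardiomyocyte library while it was 1.04% of that pair in ECs. In some pairs the same form led in both populations. Slc25a4, the heart form of the adenine nucleotide carrier, was 98.95% and 90.2% of its pair with Slc25a5, and Atp2a2 was 99.7% and 84.9% of its pair with Atp2a3. Cavin4 remained below Cavin1 in both (13.5% and 0.016%). The pairs whose groups overlapped were Pygm with Pygb, the glycogen phosphorylases, Mef2a with Mef2c, at 39.1% and 41.4% (exact permutation test, p = 0.49), and Erbb4 with Egfr, which had no counts at all in some EC library. Within ECs, Myh6, Actc1 and Tnnt2 were highest in the third library, and without it 35 pairs had groups that did not overlap.

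**Figure D5:**
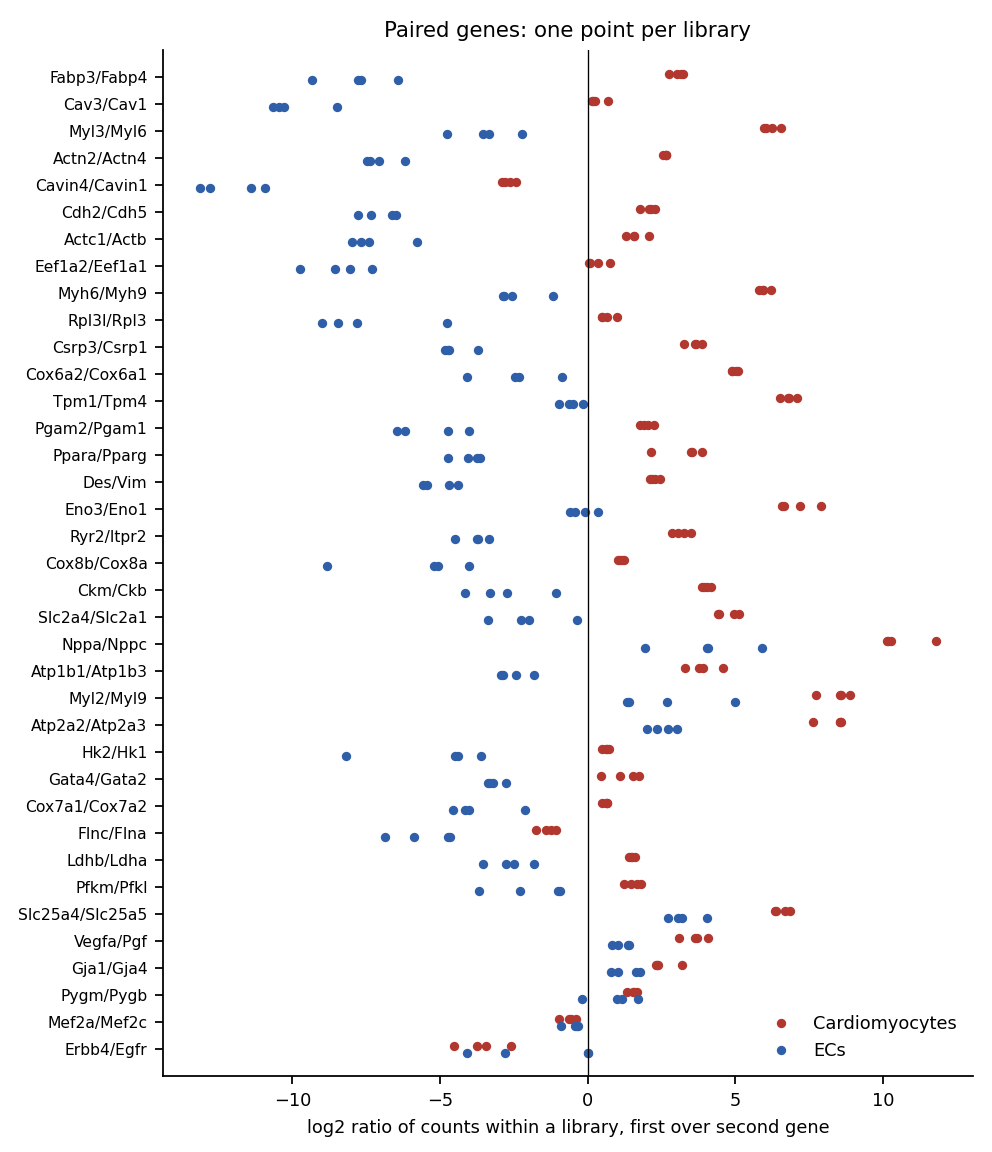
Log2 ratio of the counts of 37 gene pairs, first over second gene, with 1 point per library (0.5 added to each count). Red, 4 Sham cardiomyocyte libraries; blue, 4 Sham EC libraries; the vertical line marks equal counts. From Fabp3 over Fabp4, with a gap of 10.8 log2 units between group means, down to Gja1 over Gja4 the groups do not overlap, and the last 3 rows overlap.

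Ranked by fitted difference among genes above 50 CPM, the leading genes on the cardiomyocyte side included Bdh1, Cidea, Cavin4, Syngr1, Acta1, Fgf13, Pgam2, Myl3 and Kcnip2. The fitted difference of genes near 0 in ECs depends on the prior count, so the rank of Bdh1, Cidea, Cavin4, Syngr1 and Fgf13, whose folds are known only as lower bounds, is not established. Cidea, a lipid droplet protein, had 61.7, 56.1, 53.8 and 58.9 CPM in cardiomyocytes, with at most 1 count in an EC library, and is at least 50.8-fold higher. Syngr1, better known from synaptic vesicles, had 153 ± 12.03 CPM and at most 2 counts in ECs. Fgf13, a non-secreted modulator of sodium channels, had 51.04 ± 4.19 CPM and at most 1 count. On the EC side the leading genes were Ppp1r16b, Nr4a1, Dusp6, Slc28a2, Vwf, Ifi44, Foxc1, Cav1 and Tm4sf1, besides 1 predicted gene without a usual symbol. Ppp1r16b, a phosphatase regulator of the endothelial barrier, had 6.73, 5.32, 4.77 and 6.04 CPM in cardiomyocytes and 44.3, 71.9, 70.8 and 64.7 CPM in ECs, 10.9-fold (log2 difference −3.44, SE 0.24, FDR: 1.7e-11). Slc28a2, a nucleoside carrier, had 10.3 ± 2.95 and 93.6 ± 16.6 CPM (log2 difference −3.18, FDR: 9.6e-12), and Ifi44, an interferon-induced gene, 6.44 ± 2.78 and 56.5 ± 8.71 CPM (log2 difference −3.08, FDR: 2.6e-10).

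Immediate early and dissociation genes, which respond within minutes to digestion and sorting, were higher in ECs for 11 of 15 and in cardiomyocytes for none (median −1.41). Dusp1, a phosphatase of stress kinases, stood at 97.6, 94.2, 77.7 and 81.1 CPM in cardiomyocytes and at 259, 431, 338 and 303 CPM in ECs (log2 difference −1.92, SE 0.16, FDR: 4.2e-10). The heat shock genes Hspa1a and Hspa1b had 130.1, 505, 245 and 389 and 109, 493, 272 and 358 CPM in the 4 EC libraries, with the first library lowest in both, against means of 86.1 and 52.4 CPM in cardiomyocytes. Fos did not pass (186 ± 56.3 and 231 ± 104 CPM, 95% confidence interval −1.11 to 0.49), nor did Jund, Atf3 and Ier3. Every EC and no cardiomyocyte passed through the sorter, so response to handling and cell type cannot be told apart.

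Among abundant genes, the least different were Rpl39, Jak1, Nop53, Wnk1 and Rps23. Jak1, a cytokine receptor kinase, had 208 ± 14.5 and 207 ± 20.8 CPM (log2 difference 0.01, 95% confidence interval −0.26 to 0.28), and Wnk1, a kinase of ion transport, 539 ± 46.2 and 532 ± 11.5 CPM (95% confidence interval −0.24 to 0.28). These genes were chosen for a small difference on this scale, and each moves to between −1.80 and −1.86 when library size is the only scale. The most abundant nuclear genes of ECs were Actb, Hsp90ab1, Sptbn1, Fabp4, Sparcl1, Kdr, Cavin2, Tcf4 and Ptma, besides 1 predicted gene. Those of cardiomyocytes were Tpm1, Tnnt2, Myl3, Iho1, Myh6, Myl2, Actc1, Mb and Hsp90ab1, also besides 1 predicted gene. The mean of Iho1 leans on 1 library, and whether its reads come from Iho1 mRNA was not tested. Hsp90ab1, a chaperone, was on both lists, at 6030.4 ± 516 and 3065 ± 728 CPM (log2 difference 0.98, FDR: 5.7e-05, lower in cardiomyocytes with library size only).

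A few abundant genes varied widely between libraries of 1 population. Iho1, known for its part in meiosis, stood at 3914, 5957, 30233 and 6469.5 CPM in cardiomyocytes and at 1014, 844, 424 and 1059.7 CPM in ECs (log2 difference 3.80, FDR: 0.0062), with 44372 counts in the third cardiomyocyte library alone, and its log2 difference was 2.76 without that library. Cyp26b1, an enzyme that degrades retinoic acid, stood at 22.4, 169, 36.1 and 23.7 CPM in cardiomyocytes and at 2068, 142, 187 and 107 CPM in ECs, and did not pass the test (log2 difference −3.29, FDR: 0.077, or −1.19 without the first EC library), although it passed with no robust estimation, with all 38 libraries and with library size only. In each case 1 library of 4 stood far above the others. The other variable genes were Hba-a2 in cardiomyocytes and Ier3, Hspa1b and Ddit4 in ECs, Ddit4 with 1 library apart (58.2, 226, 65.01 and 63.2 CPM).

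The carriers that empagliflozin is aimed at were hardly counted in either population. Slc5a2 (SGLT2) had no count in any of the 8 libraries, which allows up to 3 counts, or 0.79 to 2.04 CPM, in a library, and Slc5a1 (SGLT1) had at most 2 counts in a library.

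The same difference was read in libraries that the Sham comparison did not use. In Control-AMI hearts, with 5 cardiomyocyte and 4 EC libraries, 2585 genes (26.3%) were higher in cardiomyocytes and 2586 (26.3%) in ECs of 9834 tested. Of the 6531 genes that passed in Sham hearts, 6225 were tested there, and 4534 of them passed in the same direction, 72.8% of those tested and 87.7% of the Control-AMI calls, with 10 in the opposite one. Of the 2843 genes past 2-fold in Sham hearts that were tested, 2533 passed in the same direction and 1 in the opposite one. In EMPA-Pre-AMI hearts, with 4 and 5 libraries, 2975 genes (30.4%) were higher in cardiomyocytes and 2825 (28.8%) in ECs. There, 4776 of the 6170 Sham genes tested passed in the same direction, 77.4% of those tested and 82.3% of the EMPA-Pre-AMI calls, and 11 in the opposite one. These hearts were separate from the Sham hearts, but they were digested and their cells isolated in the same way.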

How the data were processed

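The libraries were 3′ mRNA libraries (QuantSeq) of 3 cardiac populations. Per the labels and the study's methods, the authors trimmed reads with cutadapt 2.8 (quality 20), checked them with FastQC and estimated transcript abundance with Salmon on GRCm39 with Ensembl annotation. They deposited 1 table of estimated counts (expected counts) for 35682 genes, not normalized, in which 4.55% of values were not whole. These were rounded here. Estimated counts divide reads of similar genes by model, so near-identical genes may exchange reads. The depth was 1352522 to 4509290 counts per library, and 3 counts correspond to 0.79 to 2.04 CPM, counting error only.

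The 8 Sham libraries were filtered with filterByExpr (minimum count 10), scaled by TMM and fitted with edgeR 4.0.16 (glmQLFit, robust) in R 4.3.3, cardiomyocytes against ECs, with Benjamini-Hochberg adjustment over all genes tested and glmTreat for a 2-fold difference. Single values per library were compared by exact permutation tests, two-sided, over every split of the libraries (enumerated in Python 3.11.15). Alternatives were DESeq2 1.42.0, other scalings, filters and spreads, a replicate block, and leaving out each library. Replicates of a population differed beyond counting noise. Within a population, each library pooled hearts of separate experiments, and p-values measure the spread between these pools. On simulated counts with 200 changed genes of 10103, the fit called 66.3% of 2-fold and 91.7% of 4-fold changes, with 11 false calls. The simulated populations shared the same base levels, and the changes ran in both directions. The simulation therefore does not measure error from the difference in composition or from the choice of scaling.

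The groups, gene lists and pairs were chosen with earlier results of these data known. Genes were named when they belonged to a list or pair, were among the 10 largest differences in either direction (FDR <0.05, no overlap, 50 CPM or more), the 10 most abundant or the 5 most variable of a population, or the 5 smallest differences above 200 CPM. Predicted genes without a usual symbol were counted but not named. Some genes and 1 pair are not reported here.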

Additional observations from a re-analysis of the deposited data

Results flagged for a closer look

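Single libraries that stood apart from the other 3 of their group were flagged by the gap to the nearest library, divided by the range of the group. Chance flags about 1 group in 20, and 35 of at most 400 groups of 4 libraries were flagged. The values were not explained here.

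In ECs, the third library stood above the other 3 for Actc1 (96.4 CPM), Cox7a1 (19.7), Mb (80.3), Myl2 (90.7), Rpl3l (6.28), Slc25a4 (198) and Nrp2 (313), and for the log2 ratio of Csrp3 to Csrp1 (−3.70), and below them for Atf3 (21.3). The first EC library stood above the others for Cyp26b1 (2068 CPM against at most 187), Ptma (2380) and Vegfa (31.6), and below them for the log2 ratio of Mef2a to Mef2c (−0.91). The second EC library was high for Cox6a1 (122 CPM) and Ddit4 (226), and the fourth was low for Pygm (10.6) and high for the log2 ratio of Cav3 to Cav1 (−8.48).

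In cardiomyocytes, the first library was high for Myh6 (11884 CPM) and Dsp (760.5). The second was high for Cyp26b1 (169), Csrp1 (69.6) and Atp2a3 (18.9) and low for the log2 ratio of Atp2a2 to Atp2a3 (7.61). The third was high for Iho1 (30233 against at most 6470), Nkx2-5 (44.97), Oxct1 (1776) and Syngr1 (171), for the log2 ratio of Cav3 to Cav1 (0.68) and for that of Gja1 to Gja4 (3.18), and low for Nrp1 (127). The fourth was high for Nppa (892 against at most 382), Myl7 (196 against at most 62.8) and the log2 ratio of Nppa to Nppc (11.8), and low for Cpt1b (132) and Myl2 (8802).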

How the results depend on the processing

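The count of genes that passed, 6531 in all, stayed within 1.5 times under each alternative run (4593 to 9040), but its split did not. With library size only, cardiomyocytes had the higher level in 1018 genes and ECs in 8022, with 7337 past 2-fold (679 and 6658). Of the calls made with TMM, 4303 were made in the same direction there and 1205 in the opposite one. With 10 counts required in every library, 6923 genes were tested and 1738 were past 2-fold. DESeq2 called 3229 and 3042, RLE factors 3304 and 3190, no filter 3862 and 3649 of 17691 genes, and all 38 libraries together 3392 and 2999. Leaving out each library gave 3143 to 3411 calls on the cardiomyocyte side and 2845 to 3355 on the EC side. The difference in nuclear genes detected, −271.1, became −450.5 with at least 5 expected counts, and −131.5 to −383.5 with single libraries left out, separating the groups without the fourth EC library.

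Samples with the same replicate number did not deviate together (correlations −0.02, −0.09, 0.03 and 0.06), so the numbers were not taken as pairs. These correlations cannot tell whether hearts were shared, because the numbers need not name the pools. The main fit treated all libraries as independent. With the replicate block, 3211 genes passed on the cardiomyocyte side and 3169 on the EC side. For the gene pairs, 4 blocks allow no p under 0.125, so 0 of 37 could pass, while 34 had the same sign in all 4 blocks.

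With library size only, the log2 difference turned to Atf3 −1.45, Atp2a3 −1.84, Camk2d −1.33, Cox6a1 −1.10, Cox8a −0.17, Gata6 −1.75, Gja1 −1.24, Gucy1b1 −1.59, Hba-a1 −0.12, Hsp90ab1 −0.85, Jak1 −1.83, Jund −1.62, Pdpn −0.29, Pgf −0.81, Prox1 −0.72, Rpl39 −1.82, Rps23 −1.82, Slc25a5 −0.0732, Tfpi −1.06 and Wnk1 −1.80. With upper quartile factors, the log2 difference turned to Atp2a3 −0.25, Gata6 −0.17, Gucy1b1 −0.00784, Jak1 −0.25, Jund −0.0607, Rpl39 −0.25, Rps23 −0.24 and Wnk1 −0.24. With no filter, the log2 difference turned to Atp2a3 −0.0419, Jak1 −0.0474, Rpl39 −0.0504, Rps23 −0.0391 and Wnk1 −0.0401. With at least 10 counts required in every library, the log2 difference turned to Atp2a3 −0.0691, Jak1 −0.0757, Rpl39 −0.0777, Rps23 −0.067 and Wnk1 −0.0686. With DESeq2, the log2 difference turned to Nop53 0.00905. With RLE factors, the log2 difference turned to Nop53 0.00909. With the replicate block, the log2 difference turned to Atp2a3 −0.0123, Ier3 0.0702 and Nop53 0.00716. Leaving out each library in turn gave both signs for Atp2a3 from −0.20 to 0.17, Fos from −0.47 to 0.0164, Gata6 from −0.11 to 0.28, Ier3 from −0.39 to 0.25, Jak1 from −0.0405 to 0.13, Mef2d from −0.11 to 0.10, Nop53 from −0.14 to 0.16, Rpl39 from −0.10 to 0.13, Rps23 from −0.0402 to 0.11 and Wnk1 from −0.0031 to 0.11. Of these genes, Camk2d, Cox6a1, Cox8a, Gja1, Hsp90ab1, Pdpn, Pgf, Prox1, Slc25a5 and Tfpi had passed with TMM. The other genes named kept their direction under each setting run. Calls were lost for Cd36, Gja1, Gpihbp1, Lyve1 and Ptma with all 38 libraries, and for Cox8a, Ednra, Pdpn, Slc25a5 and Upk3b with library size only. Camk2d and Gja1 lost theirs with upper quartile factors and Iho1 with the replicate block. Gja4 lost its call with DESeq2, RLE factors, no robust estimation, the replicate block and all 38 libraries, and without any single library other than the first EC library. Ptma lost its call without the first, the third or the fourth cardiomyocyte library or the first EC library, and Rpl3 without the first or the third cardiomyocyte library. The pair of Gja1 and Gja4 lost its call without the third cardiomyocyte library. Its groups still did not overlap there, with log2 ratios of 2.32 to 2.36 in cardiomyocytes and 0.80 to 1.78 in ECs. Genes that did not pass with TMM gained a call as follows: Csrp1, Eno1, Gucy1a1 and Sparcl1 with upper quartile factors and with library size only, and Cyp26b1, Ddit4, Fos, Ier3, Mef2d, Nop53 and Slc2a1 with the latter. Atf3, Atp2a3, Gata6, Gucy1b1, Jak1, Jund, Rpl39, Rps23 and Wnk1 also passed with library size only, each in the turned direction. Cyp26b1, Ddit4 and Hba-a2 passed with no robust estimation and with all 38 libraries, Hba-a1 with the former, Hba-a2 with DESeq2 and Ddit4 with the replicate block. Csrp1 passed with no filter, with 10 counts in every library, and without the third or the fourth EC library, Hba-a2 without the second cardiomyocyte or the third EC library, and Jund without the first EC library. Depth limits genes near 3 counts in 1 population, whose fold is given only as a bound.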
